A study of Mus musculus with 12 samples.

Results

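The complement genes of cardiac macrophages (Mφ) were described through 9 members, the genes of the C1q chains (C1qa, C1qb, C1qc), of components C3 and C4b, of factor B (Cfb) and properdin (Cfp), and of the anaphylatoxin receptors C3ar1 and C5ar1. They were chosen by gene symbol, and all 9 were found among the 24445 symbols of the count files and were among the 14608 genes with enough counts to be tested. The Mφ came from 12 adult male C57BL6/J mice with no engineered allele. Control (Ct) mice carried a pump that delivered saline, for 14 or 28 days per the methods, with no duration assigned to each Ct mouse in the labels. Isoproterenol, a β-adrenergic agonist, was infused at 30 mg/kg/day for 14 days in the mice of the early concentric hypertrophy (ECH) group and for 28 days in those of the heart failure (HF) group, with 4 mice a group and 1 library a mouse. All libraries held RNA of CD45-enriched, CD11b-gated cells that carried CD14 and CD64 on their surface, so they report on the sorted cells and not on the cardiac tissue around them, and treatment is known only as dose and duration. The comparisons asked how complement RNA in sorted Mφ differed between control hearts and both stages of isoproterenol infusion, and between these stages.

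Complement is a cascade of plasma and tissue proteins that tag particles for uptake, call in leukocytes and can pierce membranes. The classical route starts when C1q, built from the A, B and C chains, binds a target and its partner proteases cleave C4, and the alternative route starts from C3 itself with factor B, in a complex that properdin holds together. Most circulating components are made by the liver, whereas C1q and properdin are made largely by myeloid cells, and the fragments C3a and C5a signal to leukocytes through C3AR1 and C5AR1.

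Each library held between 88466559 and 111180291 counts in total. Levels are given in CPM, that is, counts scaled to a common library size after TMM normalisation, and genes were compared in edgeR's quasi-likelihood model of all 12 libraries, with FDR values from Benjamini-Hochberg adjustment over the genes tested. The defining markers of the sort were present throughout, and the summed level of 6 sort and Mφ markers spanned 7378 to 10009 CPM in Ct, 8711 to 10825 CPM in ECH and 8980.3 to 9924 CPM in HF. Libraries Ct 2 (14489 genes detected) and HF 1 (13600) had the fewest genes with a count, against 15054 to 15940 in the others. By the library numbers in the labels, the libraries can be sorted into a set A (all Ct, ECH 1 and ECH 2) and a set B (ECH 3, ECH 4 and all HF). These sets are an inference that no source states, and between HF and Ct the set and the group cannot be told apart directly. A fit with the set as a covariate takes the set difference from the ECH libraries alone. Its values for HF against Ct are therefore indirect. The number of independent molecules behind a count is not known, because the libraries carry no molecular identifiers.

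Of the 9 genes, Cfp was higher in Mφ of isoproterenol-infused mice at both stages. Its mean was 2.1-fold that of Ct in ECH (log2 fold change 1.07 ± 0.16 SE, FDR 0.0144 in edgeR's quasi-likelihood test) and 3.18-fold in HF (1.67 ± 0.17, FDR 0.00104). None of the other 8 genes passed an FDR of 0.05 in that test in any comparison, while DESeq2 also called C4b in HF against Ct, at an adjusted p of 0.0429. The mean of C4b was lowest in HF, with overlap between the groups, and the C1q chains, C3, Cfb and the receptors C3ar1 and C5ar1 gave no call. Because the RNA came from sorted populations, a change in the cells that make up the sort and a change in RNA per cell cannot be told apart.

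Between ECH and Ct, 1 of 9 members was called at an FDR under 0.05, where 0.472% of all genes tested were. The same gene also passed the 2-fold limit, as did 0.356% of all genes. At an unadjusted p under 0.05 the count was again 1, beside 11.9% of all genes. In 2 of 9 members, Cfp and C3, the ECH and Ct libraries did not overlap, which was so for 7.97% of all genes (4.33% with ECH higher and 3.64% with ECH lower). The median log2 fold change of the members was 0.19, and that of all genes 0.01. Between HF and Ct, 1 of 9 was called at an FDR under 0.05 (0.513% of all genes) and likewise with the 2-fold limit (0.377%). Here Cfp and C4b were the 2 members at an unadjusted p under 0.05 (16.1% of all genes), and Cfp was the 1 member without overlap (9.04%, of which 4.59% with HF higher and 4.45% with HF lower). The median log2 fold change was 0.23, against −0.01 over all genes. Between HF and ECH, edgeR's quasi-likelihood test called 0 of 9 members and 0 genes in all (0%). Cfp alone had an unadjusted p under 0.05 (7.98% of all genes, 2.81% higher and 5.17% lower in HF) and alone did not overlap (6.92%, of which 3.36% with HF higher and 3.56% with HF lower). DESeq2 called 1 member in that comparison, Cfp, at an adjusted p of 0.0472. The comparisons share their Ct, ECH or HF libraries and are not independent of each other.

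**Figure D1:**
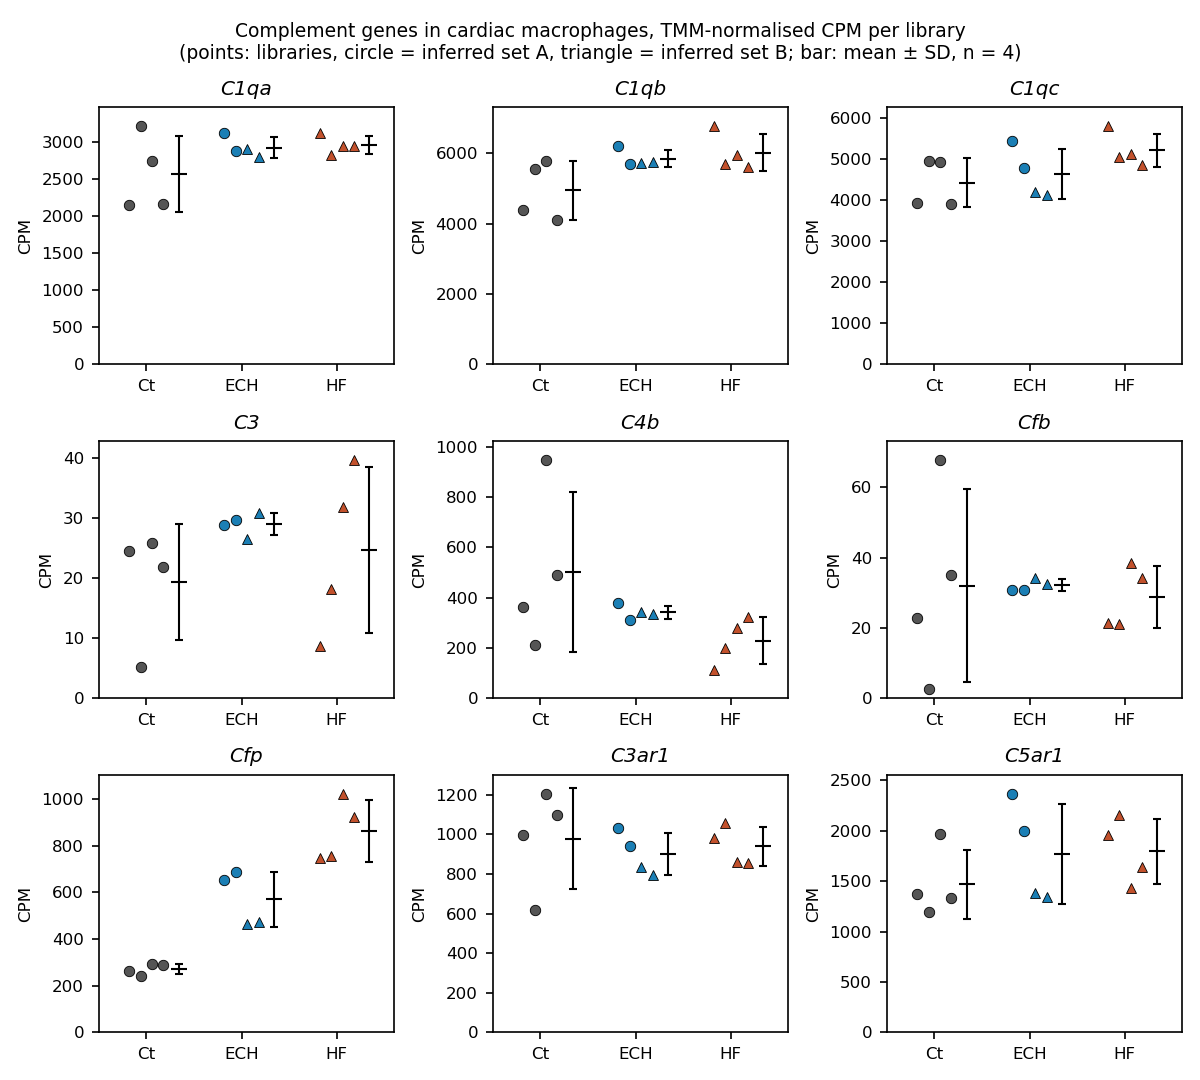
TMM-normalised CPM (y axis, from 0) of the 9 complement genes in each library of the Ct, ECH and HF groups (x axis); each point is a library, circles mark the inferred set A and triangles set B, and the bar beside each group is mean ± SD (n = 4). For Cfp the Ct libraries lie between 244 and 292 CPM, ECH between 463 and 688 and HF between 748 and 1022, whereas the groups overlap in the other panels except for ECH above Ct in C3.

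**Figure D2:**
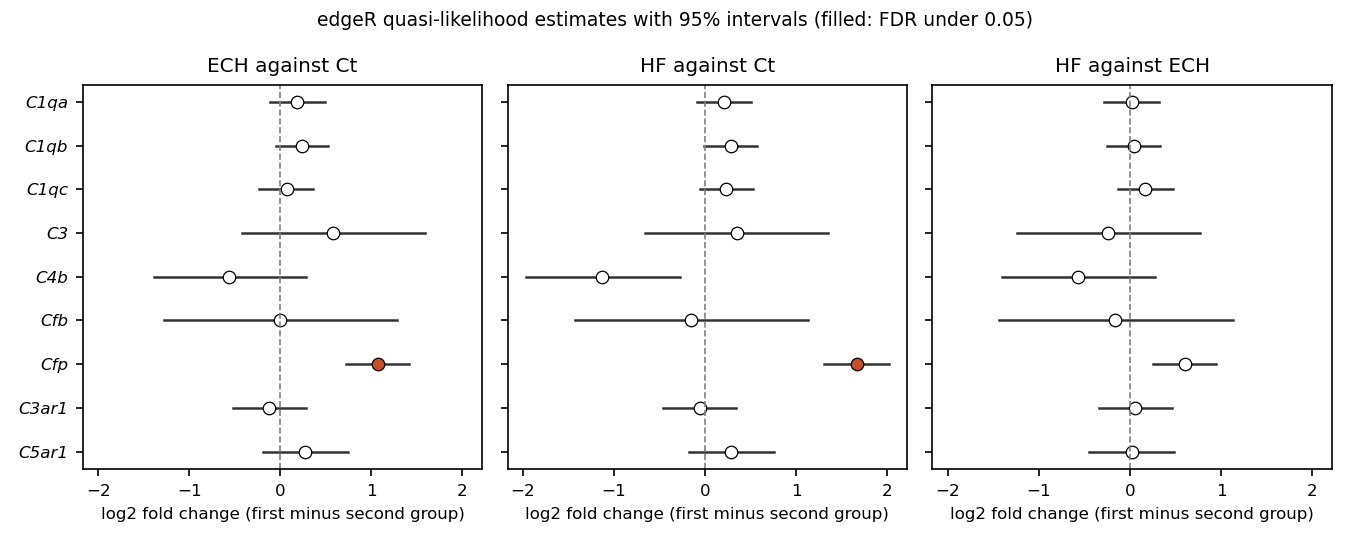
Log2 fold changes of the 9 genes (x axis, first minus second group; genes on the y axis) from edgeR's quasi-likelihood model with 95% intervals, for ECH against Ct, HF against Ct and HF against ECH. Filled points have an FDR under 0.05, which only Cfp reached, at 1.07 and 1.67 in the comparisons with Ct, and the widest intervals are those of Cfb, which run from −1.28 to 1.28 in ECH against Ct.

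The C1q chains, which form the recognition part of the classical route, were the most abundant complement RNAs of these cells. Their counts together made up 1.04% to 1.52% of all counts of a library, and all 9 members together 1.34% to 1.89%. Per length of exon, C1qb was at 4548 ± 765 CPM per kilobase (SD, n = 4) in Ct, 5374 ± 218 in ECH and 5527 ± 485 in HF, and it ranked 5 in each group among 23509 genes with a length. C1qa ranked 9, 8 and 9 and C1qc 11, 11 and 10 in Ct, ECH and HF. The 3 genes lie next to each other on the minus strand of chromosome 4 (GRCm38, GENCODE M21), with C1qb at chr4:136880129-136886187, C1qc at chr4:136889804-136893065 and C1qa at chr4:136895917-136898803.

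C1qa was at 2146, 3208, 2734 and 2155 CPM in Ct libraries 1 to 4. In ECH it was at 3113, 2867, 2904 and 2793 CPM, and in HF at 3116, 2823, 2936 and 2944 CPM. The ECH and HF libraries lay close together, inside the span of the Ct libraries, of which Ct 1 and Ct 4 were the low ones. ECH differed from Ct by a log2 fold change of 0.19 (95% interval −0.11 to 0.49, FDR 0.643) and HF by 0.21 (−0.09 to 0.50, FDR 0.500).

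C1qb was at 4381, 5542, 5773 and 4096 CPM in Ct, at 6200.0, 5699.5, 5723 and 5766 CPM in ECH and at 6776, 5705, 5954 and 5621 CPM in HF. The ECH libraries overlapped Ct through Ct 3, and Ct 1 and Ct 4 were again low. Its log2 fold change was 0.24 (−0.05 to 0.53, FDR 0.512) for ECH and 0.28 (−0.01 to 0.57, FDR 0.329) for HF against Ct.

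C1qc was at 3915, 4958, 4925 and 3893 CPM in Ct, at 5431, 4774, 4194 and 4112 CPM in ECH and at 5796, 5053, 5111 and 4847 CPM in HF. Among the ECH libraries the 2 of set A were above the 2 of set B, and 3 of 4 HF libraries were above every Ct library. Against Ct, the log2 fold change was 0.07 (−0.23 to 0.36, FDR 0.897) for ECH and 0.23 (−0.06 to 0.53, FDR 0.433) for HF. Within set B, HF exceeded ECH for C1qc by 0.33 ± 0.10 SE (FDR 0.111), against 0.17 over all libraries (FDR 0.830). With the set as a covariate, C1qc differed from Ct by 0.21 in ECH (FDR 0.770) and by 0.53 ± 0.21 SE in HF (FDR 0.233).

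With 1 library left out in turn, the difference of ECH and Ct ranged from 0.11 (without Ct 1) to 0.32 (without Ct 2, the library highest in C1qa) for C1qa and from 0.16 (without Ct 4) to 0.32 (without Ct 3) for C1qb. Neither chain was called in any of these fits, with FDR values of at least 0.336 and 0.283 in edgeR. Between HF and ECH the chains differed by 0.02 (C1qa), 0.04 (C1qb) and 0.17 (C1qc) on the log2 scale.

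The share of each chain in the summed per-length level of C1q differed little between libraries. C1qb made up 48.9% ± 1.48 (SD, n = 4) in Ct, 50.9% ± 1.31 in ECH and 49.9% ± 0.759 in HF. C1qa made up 26.4% ± 1.64, 26.6% ± 0.550 and 25.7% ± 0.996 in the same order. C1qc made up 24.7% ± 0.776, 22.6% ± 1.70 and 24.3% ± 0.381, and its lowest shares, 21.2% and 21.1%, were those of ECH 3 and ECH 4. The shares rest on the length given to C1qc, whose exons span 1931 bases in union and 1203 in the longest transcript. With the latter, C1qc made up 34.5% in Ct and ranked above C1qa.

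Across the 12 libraries, log2 levels of C1qa and C1qb had a Pearson r of 0.91 and a Spearman rho of 0.41, those of C1qa and C1qc 0.78 and 0.73, and those of C1qb and C1qc 0.82 and 0.73. These values describe libraries that share groups and sets, and they rest in part on Ct 1 and Ct 4, without which r was 0.38, 0.54 and 0.66 (n = 10). The genes whose log2 levels most resembled the mean of the chains, among 8639 genes with a mean of at least 10 CPM, were Psmc4 (r = 0.954), Sdhb (0.944), Bub3 (0.937), 2610001J05Rik (0.936) and Ggh (0.925), over the same 12 libraries.

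The 250 bases before the annotated start of C1qb are shown because the chains are the most abundant complement RNAs here and lie side by side in the genome. The window, at chr4:136886201-136886450 on the minus strand of GRCm38.p6 from RefSeq, is printed 5′ to 3′ with the letters GAGGAA, a core bound by the myeloid factor PU.1, in capitals.
C1qb: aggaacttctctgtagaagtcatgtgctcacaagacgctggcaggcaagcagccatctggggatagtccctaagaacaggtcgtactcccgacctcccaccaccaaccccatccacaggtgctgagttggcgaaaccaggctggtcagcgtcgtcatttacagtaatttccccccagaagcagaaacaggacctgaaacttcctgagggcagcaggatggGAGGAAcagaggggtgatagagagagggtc
GAGGAA or its reverse complement stood once in this window, 30 bases before the start, and 23.3% of 32851 windows of the same length held it. The window also held TGCTGA (half-MARE, in 16.1% of all windows) 131 bases and TGACG (CRE half-site, 17.8%) 99 bases before the start, both strands searched. RefSeq windows were found for 6 of the 9 genes (C1qb, C1qc, C3, C3ar1, C5ar1 and Cfp). A match of letters is a description of the sequence and no evidence of binding.

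Components C3 and C4b and factor B, from which the convertases of both routes are built, were at lower levels than C1q. Per length, C4b stood at 88.2 ± 55.8, 59.9 ± 4.78 and 40.3 ± 16.4 CPM per kilobase (SD, n = 4) in Ct, ECH and HF. Cfb stood at 11.3 ± 9.66, 11.4 ± 0.597 and 10.2 ± 3.12, and C3 at 3.76 ± 1.86, 5.63 ± 0.355 and 4.78 ± 2.68 CPM per kilobase. For all 3 genes the ECH libraries were tightly grouped and the Ct libraries wide. The coefficient of variation was 49.5%, 63.2% and 85.1% in Ct for C3, C4b and Cfb, and 6.30%, 7.97% and 5.25% in ECH.

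C3 (chr17:57203970-57228136), the component on which the routes converge, was at 24.4, 5.21, 25.9 and 21.9 CPM in Ct libraries 1 to 4. It was at 28.9, 29.7, 26.5 and 30.8 CPM in ECH, and at 8.69, 18.2, 31.8 and 39.6 CPM in HF. Every ECH library was above every Ct library, but the gap between ECH 3 and Ct 3 was small, and the HF libraries reached from below most Ct libraries to above all ECH libraries. The log2 fold change of ECH against Ct was 0.58 (95% interval −0.42 to 1.59, FDR 0.671 in edgeR). The lowest values were those of Ct 2 and HF 1, the libraries with the fewest genes detected, and without both the difference for C3 was 0.26 (FDR 0.712). Between HF and ECH it was −0.24 (FDR 0.965) with these libraries and 0.05 without them. What the low number of detected genes contributes was not tested.

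C4b (chr17:34728380-34743882), whose product is cleaved after C1q binds, was at 363, 210.2, 947 and 489 CPM in Ct. In ECH it was at 377, 311, 341 and 335 CPM, and in HF at 113, 200.1, 281 and 325 CPM. The HF libraries overlapped Ct through Ct 2, and Ct 3 was far above the others. HF against Ct gave a log2 fold change of −1.13 ± 0.39 SE (FDR 0.203 in edgeR), and DESeq2 called it. Without Ct 3 it was −0.62 (FDR 0.310), and without Ct 2 it was −1.38 (FDR 0.120). The difference of ECH and Ct was −0.56 (FDR 0.622) and that of HF and ECH −0.57 (FDR 0.769). The ECH difference of C4b was −0.05 without Ct 3 (FDR 0.964) and −0.81 without Ct 2 (FDR 0.429). C4b has a near-identical copy in the mouse genome, C4a, which was listed at a mean of 0.17 to 0.438 CPM in the groups, so how reads were assigned between the copies is uncertain.

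Cfb (chr17:34856374-34862518), the protease of the alternative convertase, was at 22.9, 2.56, 67.7 and 35.1 CPM in Ct, at 30.7, 30.8, 34.3 and 32.6 CPM in ECH and at 21.5, 21.2, 38.5 and 34.1 CPM in HF. The Ct libraries spanned all others, and Ct 2 was again lowest. In the model the log2 fold change was 0.00 (−1.28 to 1.28) for ECH and −0.15 (−1.43 to 1.13) for HF against Ct, so changes of either sign of more than 2-fold remained inside the intervals. Another gene model on the same strand, Gm20547, covers 79.5% of the exonic bases of Cfb, and counts of Cfb are uncertain for that reason. Across the 12 libraries C3 and Cfb had a Pearson r of 0.82 and a Spearman rho of 0.57, and without Ct 2 and HF 1 r was 0.31 (n = 10). The genes closest to C3 by the same measure were Cog2 (r = 0.960), Eif5a2 (0.952), Stat6 (0.944), Ttc13 and Ddb1 (0.936 each). Their Spearman rho with C3 was 0.94, 0.66, 0.52, 0.69 and 0.65 in that order, so apart from Cog2 the ranks were less alike than the Pearson values.

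Cfp (chrX:20925454-20931555, minus strand), which encodes properdin, the stabiliser of the alternative convertase, was the member that separated the groups. It was at 262, 244, 292 and 288 CPM in Ct libraries 1 to 4. In ECH it was at 655, 688, 463 and 475 CPM. In HF it was at 748, 756, 1022 and 925 CPM. No library of a group reached into another group, and the order from Ct through ECH to HF held for every pair of libraries from different groups.

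Between ECH and Ct the log2 fold change of Cfp was 1.07 (95% interval 0.72 to 1.42), and the gene ranked 17 of 14608 by p (FDR 0.0144 in edgeR). Between HF and Ct it was 1.67 (1.31 to 2.02) and the gene ranked 2 (FDR 0.00104). Between HF and ECH it was 0.60 ± 0.16 SE (0.25 to 0.95, FDR 0.491), with HF higher in all 4 libraries but not called.

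The ECH libraries of Cfp fell into a higher pair, ECH 1 and ECH 2 of set A, and a lower pair, ECH 3 and ECH 4 of set B. In the labels, ECH 3 and ECH 4 also share a code of unstated meaning that ECH 1 and ECH 2 lack. Within ECH, the inferred set and that code cannot be told apart. Within set A, ECH exceeded Ct for Cfp by 1.30 ± 0.16 SE (FDR 0.132 in edgeR), and within set B, HF exceeded ECH by 0.88 ± 0.15 (FDR 0.0204). The differences had the same direction within sets as over all libraries, and the call in ECH against Ct was lost within set A, where 2 ECH libraries were left. That call was also lost without Ct 1 (1.05, FDR 0.0645) and in a fit of the ECH and Ct libraries alone (1.06, FDR 0.0649), whereas HF against Ct was called whichever library was left out, with FDR values of at most 0.0121. Over all 22 alternatives of HF against Ct the log2 fold change of Cfp stayed between 1.58 and 2.18, the latter with the set as a covariate.

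Some markers of other cells moved with Cfp and others did not. The summed level of 5 dendritic cell markers was 52.7 to 65.2 CPM in Ct, 76.7 to 124 CPM in ECH and 96.8 to 120.4 CPM in HF, without overlap with Ct. Of these 5, Flt3 had an unadjusted p under 0.05 in ECH against Ct, and Flt3 and Cd209a did so in HF against Ct, while Clec9a was at 0 in Ct 2 and HF 1 and Xcr1 at 1.3 to 6.03 CPM. The 5 markers did not move alike. The mean of Flt3 was 3.17 CPM in Ct and 27.1 CPM in ECH (log2 difference 3.09, FDR 0.123 in edgeR), and the log2 differences of ECH against Ct were 0.56 for Zbtb46, 0.11 for Cd209a, 0.02 for Clec9a and −0.40 for Xcr1. In HF against Ct they were 1.85 for Flt3, 0.90 for Cd209a, 0.38 for Zbtb46, −0.80 for Xcr1 and −2.09 for Clec9a, and none of the 5 passed the FDR threshold in either comparison. Cd209a, a lectin of dendritic cells, was at 45.2 ± 7.37 CPM in Ct, 49.0 ± 16.2 in ECH and 84.2 ± 8.92 in HF (SD, n = 4). The sum of 5 markers of Ly6C-high monocytes was 291 to 589 CPM in Ct, 508 to 687 in ECH and 539 to 903 in HF, with overlap. Among 5 markers of resident Mφ, whose sum overlapped between the groups, Timd4 was at 112 to 227 CPM in Ct, at 33.6 to 77.3 CPM in ECH and at 65.5 to 100.5 CPM in HF. Timd4 fell in ECH (log2 fold change −1.62, FDR 0.0341 in edgeR) and was not called in HF (−0.93, FDR 0.172), though all libraries of both groups were below Ct. Folr2 was also below Ct in all ECH libraries (−0.56, FDR 0.216), whereas the ECH means of Cd163 (0.72, FDR 0.241) and Lyve1 (0.39, FDR 0.677) were above Ct and that of Cbr2 was below (−0.31, FDR 0.462), each with overlap between the groups. In HF against Ct the differences were −0.28 for Cd163, 0.15 for Lyve1 and −0.02 for Cbr2, also with overlap. The part of these cells in the difference of Cfp was not tested.

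Per length, Cfp stood at 156 ± 13.1 CPM per kilobase in Ct, 328 ± 67.6 in ECH and 497 ± 77.0 in HF, which moved it from rank 290 through 126 to 94 among the 23509 genes. In Ct its mean level lay below that of C3ar1 (227 ± 59.5) and in HF above it (218 ± 22.7). The genes with log2 levels most like those of Cfp over the 12 libraries, a search made after its values were seen, were Wdfy1 (r = 0.959), Kcnn4 (0.948), Lgals3 (0.942), App (0.942) and Ctsb (0.940). Lgals3, which encodes galectin-3, had group means of 403, 829 and 996 CPM in Ct, ECH and HF. The 12 libraries include the differences between the groups, and r within groups was not computed for these genes.

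The 250 bases before the start of Cfp are shown because Cfp is the called gene. The window, at chrX:20931556-20931805 on the minus strand of GRCm38.p6 from RefSeq, is printed 5′ to 3′ in lower case only, since it held none of the letters searched.
Cfp: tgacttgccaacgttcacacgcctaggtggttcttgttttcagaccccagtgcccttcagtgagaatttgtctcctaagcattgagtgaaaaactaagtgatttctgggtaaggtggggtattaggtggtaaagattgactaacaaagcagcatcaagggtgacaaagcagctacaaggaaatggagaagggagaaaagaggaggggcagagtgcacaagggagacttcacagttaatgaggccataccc
The letters searched, on both strands, were GAGGAA (PU.1), TGCTGA (half-MARE), TGACG (CRE half-site), TGANTCA (AP-1, in 6.75% of 32851 windows) and TTGCNNAA (CEBP, 9.56%), and the motif ISRE (2.98%) was searched too. C3 held TTGCNNAA 45 bases and C3ar1 held TGANTCA 22 bases before the start. That these letters are not in the window of Cfp says nothing of the factors elsewhere.

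The receptors for the fragments C3a and C5a were expressed in every library. C5ar1 was the more abundant per length, at 571 ± 133, 689.7 ± 193 and 698 ± 126 CPM per kilobase in Ct, ECH and HF, against 227 ± 59.5, 209 ± 24.7 and 218 ± 22.7 for C3ar1 (SD, n = 4). The ratio of C5ar1 to C3ar1 per kilobase was 2.03 to 3.25 in Ct, 2.78 to 3.84 in ECH and 2.78 to 3.41 in HF.

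C3ar1 (chr6:122847138-122856161), the receptor of C3a, was at 999, 616, 1204 and 1097 CPM in Ct, at 1031, 941, 835 and 794 CPM in ECH and at 982, 1057, 859.5 and 858 CPM in HF. The Ct libraries spanned all others, with Ct 2 lowest. C3ar1 gave a log2 fold change of −0.12 (95% interval −0.52 to 0.28, FDR 0.845) for ECH and −0.06 (−0.46 to 0.34, FDR 0.910) for HF against Ct. With 1 library left out in turn, the difference of ECH and Ct for C3ar1 ranged from −0.29 without Ct 2 (FDR 0.460 in edgeR) to −0.01 without Ct 3 (FDR 0.994).

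C5ar1 (chr7:16246743-16259540), the receptor of C5a, was at 1377, 1197, 1966 and 1328 CPM in Ct, at 2363, 1999.8, 1387 and 1340.0 CPM in ECH and at 1957, 2154, 1428 and 1639.8 CPM in HF. The ECH libraries of set A were both above every Ct library, and those of set B were among the Ct libraries. Over all libraries the log2 fold change was 0.27 (−0.19 to 0.74, FDR 0.667) for ECH and 0.29 (−0.18 to 0.76, FDR 0.551) for HF against Ct. Within set A, ECH exceeded Ct for C5ar1 by 0.56 ± 0.23 SE (FDR 0.947), and within set B, HF exceeded ECH by 0.40 ± 0.17 (FDR 0.231). Over all libraries the same differences were 0.27 and 0.02, and neither was called within a set. With 1 library left out in turn, the difference of ECH and Ct for C5ar1 ranged from 0.10 without ECH 1 (FDR 0.914) to 0.45 without Ct 3 (FDR 0.351), and that of HF and Ct from 0.19 without HF 2 (FDR 0.753) to 0.47 without Ct 3 (FDR 0.247). With the set as a covariate HF exceeded Ct by 0.97 ± 0.30 SE (FDR 0.130), a value that rests on the set difference among the ECH libraries alone.

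**Figure D3:**
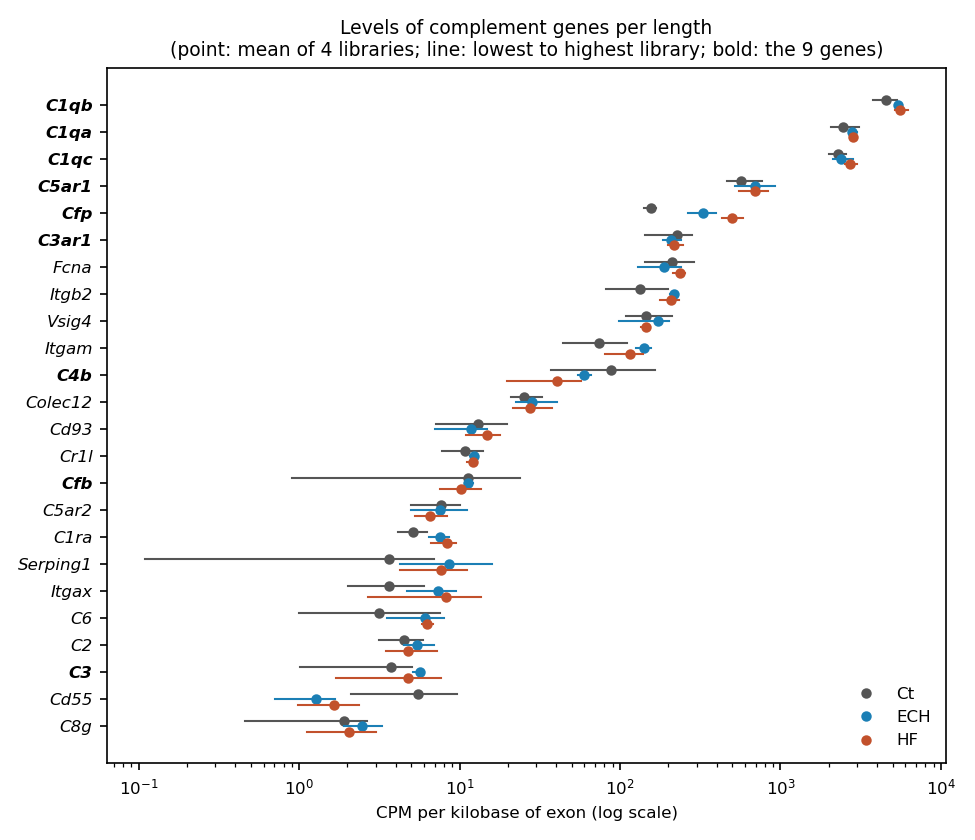
Mean CPM per kilobase of exon (x axis, log scale) of 24 complement genes with at least 1 CPM per kilobase in every group (y axis, the 9 members in bold); points are means of 4 libraries and lines run from the lowest to the highest library of Ct, ECH and HF. The C1q chains stand at 2290.4 to 5527, C5ar1 at 571 to 698, and Cfp is the member whose groups lie apart, at 156, 328 and 497.

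Beyond the 9 members, 44 other complement genes were listed by role, and 28 of them had enough counts to be tested. At an unadjusted p under 0.05, 5 were higher and 2 lower in ECH than in Ct, and 6 were higher and 1 lower in HF than in Ct, where 6.03% and 5.89%, and 7.35% and 8.72%, of all genes were. Between HF and ECH there was none, beside 7.98% of all genes. None passed an FDR of 0.05 in edgeR's quasi-likelihood test in any comparison. Among those named here, DESeq2 called Itgam, Itgb2 and Cd55 in ECH and C1ra and Cd55 in HF against Ct, and limma-voom called Itgam in ECH and C1ra, Itgb2 and Cd55 in HF. Their median log2 fold change was 0.25 in ECH and 0.15 in HF against Ct.

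The genes of the integrins that bind the C3 fragment iC3b were higher in mean in infused mice. Itgam, the α chain of complement receptor 3, was at 309.5, 223, 559 and 402 CPM in Ct, at 636, 722, 787 and 690.1 CPM in ECH and at 407, 636, 571 and 702 CPM in HF. All ECH libraries were above all Ct libraries, and HF 1 overlapped Ct. The log2 fold change was 0.92 for ECH (FDR 0.132) and 0.63 for HF (FDR 0.239) against Ct in edgeR, and DESeq2 gave Itgam an adjusted p of 0.00879 in ECH. Its product CD11b was part of the gate by which the cells were sorted.

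Itgb2, the shared β chain, was at 377, 251, 608 and 397 CPM in Ct, at 622, 649, 662 and 705 CPM in ECH and at 545, 594, 704 and 711 CPM in HF. ECH lay wholly above Ct and Ct 3 reached into HF. The log2 differences from Ct were 0.69 (FDR 0.198) in ECH and 0.65 (FDR 0.182) in HF. Without Ct 3 they were 0.95 (FDR 0.0371) and 0.90 (FDR 0.0283), and without Ct 2 they were 0.52 (FDR 0.289) and 0.47 (FDR 0.217). Itgax, the α chain of complement receptor 4 and also a dendritic cell gene, was at 17.5 ± 8.49, 35.2 ± 10.2 and 39.5 ± 22.2 CPM (SD, n = 4), with overlap between all groups (log2 fold changes 1.01, FDR 0.385, and 1.17, FDR 0.231).

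C1ra, a protease that acts with C1q, was at 15.3, 14.6, 12.3 and 18.8 CPM in Ct, at 22.0, 25.5, 19.2 and 23.4 CPM in ECH and at 19.7, 24.2, 28.5 and 27.3 CPM in HF. The Ct libraries lay below all others, with Ct 4 close to ECH 3. The log2 fold change of C1ra was 0.56 (FDR 0.238) for ECH and 0.71 (FDR 0.116) for HF against Ct in edgeR, and HF was called by DESeq2 (adjusted p 0.0122) and by limma-voom (0.0432). Fibroblasts also make this protease, and the sum of 7 fibroblast markers was 28.4 to 192 CPM in Ct, 80.7 to 428 CPM in ECH and 81.4 to 245 CPM in HF, whose part in C1ra was not tested.

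Among the regulators, Cd55, which takes convertases apart on cell surfaces, was lower in mean in infused mice. It was at 19.8, 46.6, 10.2 and 30.7 CPM in Ct, at 8.18, 6.93, 3.45 and 6.04 CPM in ECH and at 11.5, 10.4, 5.22 and 4.78 CPM in HF. ECH lay wholly below Ct, and 2 HF libraries overlapped Ct 3. For Cd55 the log2 fold change was −2.12 (FDR 0.068) for ECH and −1.75 (FDR 0.113) for HF against Ct, and without Ct 3 it was −2.39 (FDR 0.0295) and −2.02 (FDR 0.0376). Without Ct 2 the differences of Cd55 were −1.72 (FDR 0.151) and −1.34 (FDR 0.184). Cr2, the receptor for C3d of B cells, was at 8.45, 12.8, 1.47 and 10.2 CPM in Ct, at 1.35, 1.02, 0.781 and 0.285 CPM in ECH and at 0, 2.98, 0.0466 and 2.47 CPM in HF. It was lower in ECH by a log2 fold change of −3.26 (FDR 0.352), without overlap. The sum of 4 B cell markers was lower too, 96.1 to 446 CPM in Ct against 34.2 to 79.5 CPM in ECH and 50.0 to 74.6 CPM in HF, all 4 of them at an unadjusted p under 0.05 in both comparisons with Ct. Its part in Cd55 and Cr2 was not tested.

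Clu, a fluid-phase inhibitor of the terminal steps, was at 2.23 ± 1.47, 6.40 ± 2.51 and 5.24 ± 2.82 CPM (SD, n = 4) in Ct, ECH and HF (log2 fold changes 1.52, FDR 0.273, and 1.23, FDR 0.282). Cd59a, which blocks the membrane attack complex, was at 0 in Ct 1 to Ct 3, which allows up to 0.0349 CPM (3 counts of counting error), and at 0.774 CPM in Ct 4. It was at 1.67 to 1.89 CPM in ECH and at 0.82 to 3.85 CPM in HF (FDR 0.311 for HF against Ct). Without Ct 4, which left Ct libraries at 0 only, Cd59a had an FDR of 0.0103 in HF against Ct, and with any other library left out it was not called.

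Among the other complement genes highest per length, beside Itgb2 and Itgam, were Fcna and Vsig4. Fcna, a ficolin of the lectin route, was at 212 ± 64.2, 188 ± 52.4 and 236 ± 17.1 CPM per kilobase in Ct, ECH and HF. Vsig4, a macrophage receptor for C3 fragments, was at 146 ± 45.6, 172 ± 49.1 and 145 ± 9.62 CPM per kilobase. The 16 listed genes that were not tested had too few counts. Among these, Mbl2, Colec10, C8a and C4bp, of which the first is a lectin made by the liver, had no count in any of the 12 libraries, and Cfd, the gene of factor D that cleaves factor B, had 6 counts in ECH 3 and none elsewhere.

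**Figure D4:**
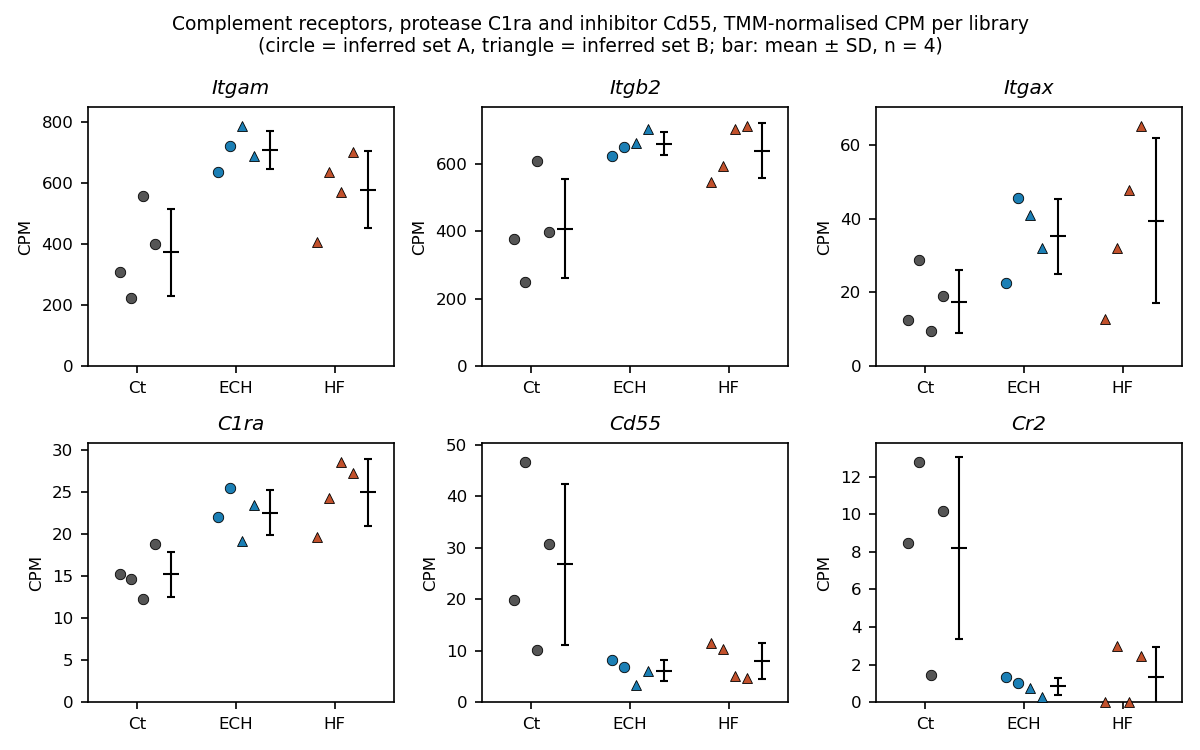
TMM-normalised CPM (y axis, from 0) of Itgam, Itgb2, Itgax, C1ra, Cd55 and Cr2 in each library of Ct, ECH and HF (x axis); circles mark the inferred set A, triangles set B, and bars are mean ± SD (n = 4). The ECH libraries of Itgam lie at 636 to 787 CPM above all Ct libraries and those of Cd55 at 3.45 to 8.18 CPM below all Ct libraries, and none of these genes had an FDR under 0.05 in edgeR's quasi-likelihood test.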

How the data were processed

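RNA of CD14+/CD64+ cardiac Mφ was measured in 12 mice (4 Ct, 4 ECH, 4 HF), grouped by the treatment in their labels. The authors amplified the RNA with the SMART-Seq v4 kit, sequenced both ends, and used Trimmomatic for trimming, TopHat2 for alignment to mm10 (GRCm38) and featureCounts for gene counts. The sources used here do not give versions, annotation or strand setting. The deposited files hold raw counts, without normalization, of 24445 symbols, with 88466559 to 111180291 counts per library. Amplified counts without molecular identifiers are not independent molecules, so the limit set by a count of 0, taken as 3 counts, allows for counting error alone.

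Analysis of the counts used edgeR 4.0.16 in R 4.3.3 (filterByExpr by group, TMM, quasi-likelihood test, 1 mean per group, all 12 libraries, common dispersion 0.370). FDR values were adjusted by Benjamini-Hochberg over 14608 genes, and the thresholds were an FDR of 0.05, with and without a 2-fold change. On data simulated with 200 changed genes, drawn at random from all genes tested, the test recovered 31.8% of 2-fold and 70.6% of 4-fold changes for ECH against Ct (1 and 6 false calls). Correlations used log2(CPM + 0.1). Lengths and positions came from GENCODE M21, and promoter windows from RefSeq (GRCm38.p6). Figures were drawn with Python 3.11.15 and matplotlib 3.10.9.

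The 9 members, the list of 44 other complement genes, the marker lists of 10 cell types and the alternatives were chosen with earlier results of these data known. All members were named. Other complement genes were named at an unadjusted p under 0.05 in any comparison or when among the 5 highest by CPM per kilobase; the 5 genes most like C1q and C3 were named by Pearson r, and the same search for Cfp was added after its values were seen. Genes without counts, C4a and Gm20547 were named beyond this rule, and 1 gene that the rule names is not reported here.

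The alternatives were RLE scaling, no filter, a minimum of 1 CPM, exceeded in 4 libraries, DESeq2 1.42.0, edgeR's likelihood ratio test, limma-voom (limma 3.58.1) with quality weights, fits of the compared groups alone, a block for the replicate number, a covariate for the library set, comparisons within a library set, Ct 2 and HF 1 left out, each library left out, and the longest transcript as length. Marker sums of 10 cell types were computed; those of resident Mφ (3512 to 5259, 3559 to 5465 and 3237 to 4221 CPM in Ct, ECH and HF), neutrophils (334 to 1583, 168 to 455 and 127 to 1238), endothelial cells (8.26 to 26.5, 12.1 to 27.4 and 9.78 to 21.9), cardiomyocytes (56.5 to 149, 59.1 to 119 and 44.9 to 95.9) and T and NK cells (10.7 to 55.5, 2.27 to 19.9 and 5.81 to 14.4) overlapped between the groups.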

Additional observations from a re-analysis of the deposited data

Results flagged for a closer look

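Of 27 groups of 4 libraries tested for a library apart from its group (9 members in 3 groups), 1 was flagged, and chance flags about 1 in 20. In ECH, library ECH 1 held 6200.0 CPM of C1qb, while the other ECH libraries held 5699.5 to 5766 CPM, so that the gap was 0.867 of the whole range, above the 95% critical value of Dixon for 4 values. HF 1, at 6776 CPM, was higher still. The deviation is small beside the spread of the Ct libraries, 4096 to 5773 CPM.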

How the results depend on the processing

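With 4 libraries a group, 31.8% of simulated 2-fold changes were recovered, so smaller differences may be missed, and the causes of changed values were not tested. For Cfp, no alternative turned the direction; ECH against Ct was called in 19 of 23 alternatives and HF against Ct in 22 of 22. HF against ECH, not called in the fit reported, was called in 3 of 23. Of all values of single genes under alternatives, 864 kept direction and side of the threshold, 23 gained and 4 lost significance, and 36 turned direction.

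In ECH against Ct, the members called fell to 0 with only the groups compared (FDR of Cfp 0.0649), with the replicate block (0.0613) and within the same library set (0.132). Members at an unadjusted p under 0.05 numbered 3 with limma-voom (14.1% of all genes in that fit), 2 with the set as a covariate (7.89%), 2 within the same set (5.03%) and 5 without Ct 2 and HF 1 (12.6%). In HF against Ct, DESeq2 called 2 members (Cfp, C4b), and limma-voom had 5 at an unadjusted p under 0.05 (21.4% of all genes). With the set covariate, 1 of the 28 other complement genes tested was at that p, against 7 in the fit reported, beside 15.1% of all genes. In HF against ECH, 1 member was called by DESeq2, with the covariate and within the same set, where the unadjusted counts were 1, 2 and 3 (9.75%, 16.2% and 21.2% of all genes), and the other complement genes at that p numbered 1 with limma-voom (13.3% of all genes), 1 with only the groups compared (11.7%) and 3 within the same set. Genes called in all, 69, 75 and 0, became 480, 702 and 72 in DESeq2, 367, 487 and 62 in the likelihood ratio test, 138 and 307 with limma-voom, 8 with only ECH and Ct, 25, 220 and 434 with the covariate and 1 and 962 within the same set. Leaving out each library in turn gave 0 to 1, 1 to 1 and 0 to 0 members called in the 3 comparisons, 1 to 5, 2 to 4 and 1 to 1 at an unadjusted p under 0.05 (8.04% to 15.1%, 12.7% to 20% and 3.89% to 11.9% of all genes), 5 to 9, 3 to 8 and 0 to 2 other complement genes at that p, and 11 to 130, 16 to 162 and 0 to 0 genes in all. The 5 in ECH against Ct came without Ct 2 (10.4% of all genes). With the longest transcript, C1qc in Ct was at 3676 CPM per kilobase, and the chain shares in Ct were 23% (C1qa), 42.5% (C1qb) and 34.5% (C1qc).

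None of the differences that turned was called. In ECH against Ct these were C3ar1 (0.01 with the covariate) and Cfb (0 with RLE and DESeq2, −0.01 with no filter, the CPM filter and only the groups compared, −0.06 with the covariate, −0.07 within the set, −0.39 without Ct 2 and HF 1). In HF against Ct they were C3ar1 (0.21 with the covariate) and Cfb (0.05 with limma-voom, 0.16 with the block). In HF against ECH they were, with limma-voom and without Ct 2 and HF 1, C1qa (−0.01 in each), C1qb (0 and −0.02) and C5ar1 (−0.05 and −0.02), and C3 (0.05 without these libraries). With a library left out, Cfb ranged from −0.38 to 0.67 in ECH and −0.54 to 0.51 in HF against Ct, C1qc from −0.02 to 0.13 in ECH against Ct, C3ar1 from −0.23 to 0.06 in HF against Ct, and in HF against ECH C1qa from −0.01 to 0.05, C1qb from −0.02 to 0.07, C3 from −0.56 to 0.05, C3ar1 from 0 to 0.13 and C5ar1 from −0.09 to 0.19.

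The replicate numbers of the labels were not taken as pairs. Same-numbered libraries deviated with correlations of −0.08 to 0.06, and differently numbered ones with correlations of −0.16 to 0.15. This check runs over all genes tested, low ones included, and cannot exclude a pairing. With the replicate block 24, 19 and 0 genes were called in all. The same-set alternative could not be made for HF against Ct.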
